A study of Mus musculus with 3 samples.

Results

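Fetal-like and Yap target genes were examined as a group of 7 genes, *Ly6a*, *Anxa1*, *Clu*, *Il33*, *Gja1*, *Ccn1* and *Ccn2*, out of the 32285 genes in the deposited matrices. They were taken by symbol from a list made with earlier results of these data known, and each symbol was found once. Their levels, the share of cells holding them at equal depth and their detection in the same cell were measured in droplet barcodes that occurred in 1 library only, held at least 10000 unique molecular identifiers (UMIs, 1 per captured RNA molecule) and had at most 20% mitochondrial UMIs. These are called deep barcodes below.

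The study sequenced RNA of single cells from small-intestinal organoids of C57BL/6 mice, with 1 library for each of 3 genotypes and therefore no replicates. The genotype of the WT organoids is labelled only as WT, and whether they carried the *Lgr5* Cre allele is not given there. *LApc* organoids came from *Lgr5*-CreERT2;*Apc* fl/fl mice (*Lgr5*-EGFP-IRES-CreERT2 in the methods), in which tamoxifen activates a Cre recombinase made only in cells that express the stem cell gene *Lgr5*, and *LApcL* organoids from mice with the same alleles and, in addition, *Lef1* fl/fl. Mice of all 3 groups were 7 to 8 weeks old and received 2 doses of 2 mg tamoxifen, and the label gives 21 days after tamoxifen for WT and *LApcL* but 29 days for *LApc*. Organoids of passage 3, day 6, were dissociated with trypsin for 40 minutes. The study's methods state that *LApc* and *LApcL* organoids grew without added growth factors for 2 passages. At passage 3, combinations of Wnt3a, R-spondin 1, noggin and epidermal growth factor were added. Whether the sequenced organoids, also of passage 3, received any of them is not stated in those methods. The medium of the WT organoids is not given in the sources used here. In the comparisons with *LApc*, days after tamoxifen and genotype cannot be told apart.

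*Apc* restrains Wnt signaling by marking β-catenin for destruction, and *Lef1* encodes one of the DNA-binding partners through which β-catenin acts. Yap is a transcriptional coactivator held in check by the Hippo kinases. When it enters the nucleus it binds Tead factors and turns on genes such as *Ccn1* and *Ccn2*. Fetal intestinal epithelium, and adult epithelium that is repairing damage, express a set of genes that resting adult crypts largely lack, with *Ly6a* (Sca-1), *Anxa1* and *Clu* among its best known markers.

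The deep barcodes numbered 1208 in WT, 2161 in *LApc* and 1931 in *LApcL*, of 11411, 10706 and 12068 deposited. They held between 48895147 and 90864428 UMIs per library, with medians of 38073.5, 34377 and 32584 UMIs per barcode. The median mitochondrial share was 10.5% in WT and 5.64% and 6.39% in *LApc* and *LApcL*. A further 3195 barcodes occurred in all 3 libraries and carried endothelial rather than epithelial RNA, so they were kept apart. In the deep barcodes the 6 epithelial markers (*Epcam*, *Krt8*, *Krt18*, *Krt19*, *Cdh1*, *Cldn7*) were all present, at a summed 4345 to 7903 UMIs per 1000000 (CPM), and *Epcam* was in 100% of barcodes of each library. *Apc* itself was at 20.0 CPM in the WT library and 88.5 and 95.4 in the deleted ones, in the order *LApc* and *LApcL*, and *Lef1* at 0.961, 72.0 and 47.8 CPM. Reads came from 3′ ends and the deleted exons are not given in the sources used here, so these levels do not check the deletions. *Xist*, RNA of the inactive X chromosome, was at 1281 CPM in *LApc*, 0.920 in WT and 0.261 in *LApcL*, and *Eif2s3y*, a gene of the Y chromosome, was at 0 UMIs in *LApc* alone. The *LApc* mouse thus differed from the others in sex as well as genotype, which cannot be told apart here.

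The DNA just before the start of a gene is where Tead factors and other regulators can bind. RefSeq promoter windows (GRCm38.p6, 250 bases before to 50 after the start) were held for 4 of the 7 members, *Anxa1*, *Il33*, *Gja1* and *Ccn1*. They were searched on both strands. The Tead word was CATTCC, which reads GGAATG on the other strand. The AP-1 word was TGANTCA. The TCF/LEF word was CTTTGA, which reads TCAAAG on the other strand. No 2 words overlapped. The 4 windows below are shown because 3 of them hold a Tead word and 1 an AP-1 word, which stand in capitals. They lie at chr3:145649936-145650235 (minus strand) for *Ccn1*, chr19:20390622-20390921 (minus strand) for *Anxa1*, chr19:29924863-29925162 (plus strand) for the first of 2 *Il33* starts and chr10:56377050-56377349 (plus strand) for *Gja1*.
Ccn1: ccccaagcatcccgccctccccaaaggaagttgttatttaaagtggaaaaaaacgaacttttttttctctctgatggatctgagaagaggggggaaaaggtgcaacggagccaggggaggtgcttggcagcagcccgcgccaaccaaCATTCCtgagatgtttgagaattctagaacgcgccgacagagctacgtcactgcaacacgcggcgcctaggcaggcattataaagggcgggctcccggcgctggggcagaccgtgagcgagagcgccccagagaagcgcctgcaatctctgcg
Anxa1: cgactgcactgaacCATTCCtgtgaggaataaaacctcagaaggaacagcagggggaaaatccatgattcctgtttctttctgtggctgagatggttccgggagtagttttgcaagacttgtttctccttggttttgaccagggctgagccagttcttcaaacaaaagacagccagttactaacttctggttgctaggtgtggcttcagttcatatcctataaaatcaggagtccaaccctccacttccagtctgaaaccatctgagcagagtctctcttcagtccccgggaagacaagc
Il33: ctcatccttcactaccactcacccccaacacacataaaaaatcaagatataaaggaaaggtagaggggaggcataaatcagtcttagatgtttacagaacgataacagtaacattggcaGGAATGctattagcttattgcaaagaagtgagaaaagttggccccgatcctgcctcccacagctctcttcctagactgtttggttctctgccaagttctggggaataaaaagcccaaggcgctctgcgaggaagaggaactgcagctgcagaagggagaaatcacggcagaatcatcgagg
Gja1: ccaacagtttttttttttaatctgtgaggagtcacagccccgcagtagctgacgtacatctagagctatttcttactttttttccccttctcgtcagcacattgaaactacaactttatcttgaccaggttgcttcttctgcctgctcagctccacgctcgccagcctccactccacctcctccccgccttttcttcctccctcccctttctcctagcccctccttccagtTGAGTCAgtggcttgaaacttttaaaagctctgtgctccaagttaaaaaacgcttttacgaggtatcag

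The Tead word began 103 bases before the start of *Ccn1*, 236 before *Anxa1* and 131 before the first *Il33* start, and the window of the second *Il33* start also held one, 107 bases before it. The AP-1 word of *Gja1* began 19 bases before its start, and the *Gja1* window held no Tead word. No TCF/LEF word was found in the 5 windows of the 4 members. For comparison, 14.7% of 32851 RefSeq windows of the same length held a Tead word, 7.81% an AP-1 word and 16.0% a TCF/LEF word. A match describes the letters and does not show binding.

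The first question was how the 7 genes differed between *Apc*-deleted and WT organoids. The 3 markers of fetal-like epithelium were nearly absent in WT and abundant in both deleted genotypes. *Ly6a*, which encodes the surface antigen Sca-1 (chromosome 15, 74994877 to 74998031, minus strand, GRCm38), was read at a level of 1.10 CPM in the WT library, 169 in *LApc* and 538 in *LApcL*. *Anxa1*, encoding the phospholipid-binding protein annexin A1 (chromosome 19, 20373428 to 20390944, minus strand), was at 5.71, 357 and 342 CPM. *Clu*, encoding the secreted chaperone clusterin (chromosome 14, 65968483 to 65981547, plus strand), was at 2.37, 104 and 239 CPM. In each case WT was the lowest library by a wide margin, and *LApcL* exceeded *LApc* for *Ly6a* and *Clu* but not for *Anxa1*.

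Single barcodes carried much of the small WT levels. One WT barcode of 139022 UMIs, the second deepest of the 1208, held 231 of the 279 WT *Anxa1* UMIs and 51 of the 116 *Clu* UMIs. The same barcode held 54 of 107 WT UMIs of *Msln* (mesothelin) and 990 of 4153 of *S100a6*, which also belong to the fetal-like program, with 1 UMI of *Ly6a* and 0 of *Lef1*. It was singled out after its values were seen, it contained 136 *Epcam* and 7 *Eif2s3y* UMIs, and its doublet score was not among the highest. Without it WT *Anxa1* was 0.984 CPM and WT *Clu* 1.33 CPM. A different WT barcode of 107925 UMIs held 25 of the 54 *Ly6a* UMIs, and without it WT *Ly6a* was 0.594 CPM.

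*Il33*, which encodes a nuclear alarmin of the interleukin-1 family (chromosome 19, 29925114 to 29960718, plus strand), was at 0.164 CPM in WT from 8 UMIs, 30.7 in *LApc* and 34.0 in *LApcL*. *Gja1*, encoding the gap junction protein connexin 43 (chromosome 10, 56377330 to 56402513, plus strand), had 0 UMIs in WT, 67 in *LApc* (0.737 CPM) and 8 in *LApcL* (0.0994 CPM). *Gja1* was thus scarce in the epithelial barcodes of every genotype, unlike the other members in the deleted genotypes.

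Both matricellular Yap targets were detected in WT and were higher in the *LApc* and *LApcL* libraries. *Ccn1* (Cyr61, chromosome 3, 145646976 to 145649981, minus strand) had a WT level of 67.2 CPM, with 370.1 in *LApc* and 300.4 in *LApcL*. *Ccn2* (Ctgf, chromosome 10, 24595442 to 24598683, plus strand) was at 3.60, 50.8 and 62.0 CPM. WT was again the lowest library for both genes, and the deleted genotypes lay close to each other.

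**Figure D1:**
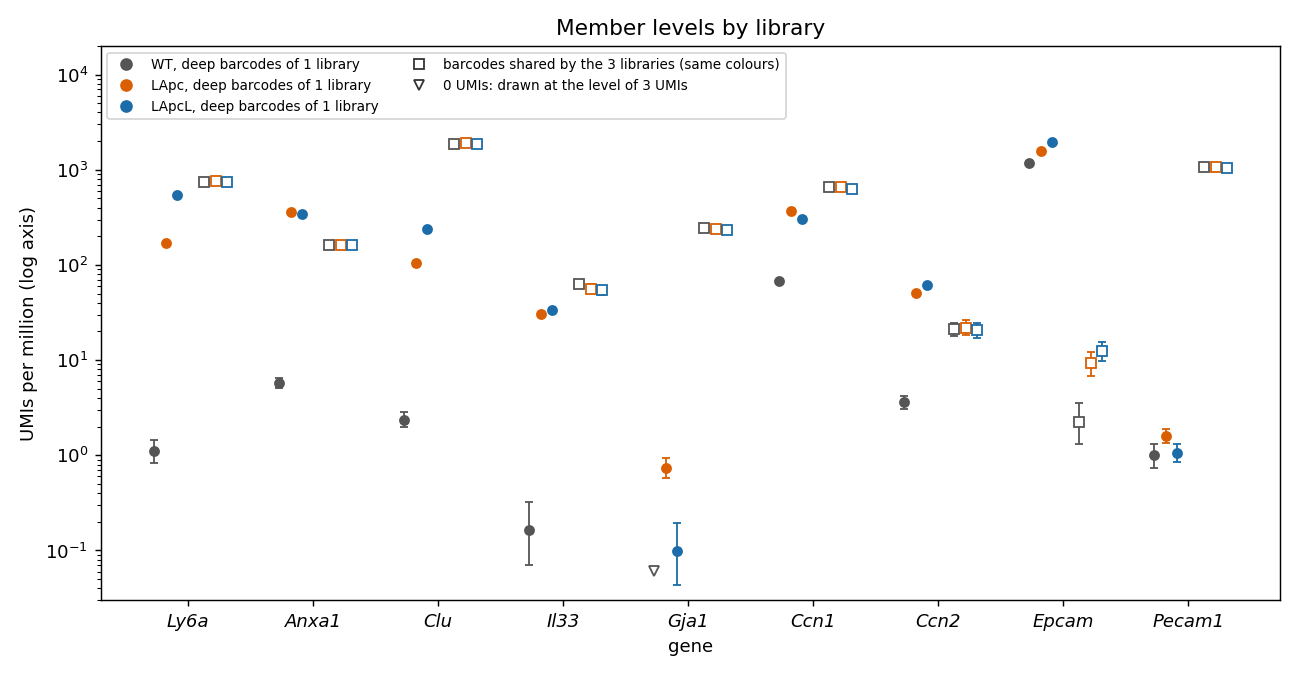
Levels of the 7 members, with *Epcam* and *Pecam1* as background, in UMIs per 1000000 on a log axis. Filled circles are deep barcodes of 1 library, open squares are barcodes shared by the 3 libraries, colors are genotypes, and bars are exact 95% Poisson intervals (counting error only); the open triangle marks 0 UMIs and is drawn at the level of 3 UMIs. WT circles lie below both deleted genotypes for the 6 members other than *Gja1*, while the 3 squares of a gene lie close together.

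Ratios are given as log2 of (CPM + 1) against (CPM + 1), which understates the difference of genes at a low level, with 95% intervals for counting error only. In *LApc* against WT the log2 ratio was 6.33 for *Ly6a* (6.12 to 6.54), 5.74 for *Anxa1* (5.59 to 5.88) and 4.96 for *Clu* (4.76 to 5.15). Without the single barcodes named above these ratios were 6.73, 7.49 and 5.49. Over the 12 alternatives *Ly6a* ranged from 4.01 to 6.84, *Anxa1* from 4.54 to 7.49 and *Clu* from 3.20 to 5.88, each lowest with a pseudocount of 10 CPM. A mitochondrial limit of 10% lowered *Ly6a* to 5.64 and raised *Anxa1* to 7.26 and *Clu* to 5.46. With barcodes of any depth *Ly6a* was at 5.44 and *Clu* at 4.19, and *Clu* was at 4.13 when deep barcodes found in 2 or 3 libraries were kept (1217 WT and 2172 *LApc* barcodes). *Il33* had a log2 ratio of 4.77 (4.58 to 4.89), *Ccn2* 3.49 (3.32 to 3.67) and *Ccn1* 2.44 (2.39 to 2.49). For *Gja1* the log2 ratio was 0.80. Setting the 0 UMIs of the WT library to 3 made *LApc* at least 12.0-fold higher for this gene. This difference rested on the choice of barcodes. With barcodes of 1 library at any depth, WT held 37 *Gja1* UMIs (0.676 CPM), *LApc* 69 (0.720 CPM) and *LApcL* 10 (0.112 CPM), so that WT was close to *LApc* (log2 ratio 0.037) and above *LApcL*. With the deep barcodes of 2 or 3 libraries kept, the *LApc* against WT log2 ratio was 0.34. All 7 members had at least 10 UMIs in 1 of the 2 libraries, and 6 of them were at or past 2-fold higher in *LApc* and 0 lower. Over all 17091 genes with that many UMIs, 19.6% were at or past 2-fold higher and 8.13% lower, a split that became 12.8% and 12.0% with median-of-ratios scaling in place of library totals. The median log2 ratio of the members was 4.77 against 0.31 for all genes, which was 0.066 with median-of-ratios scaling. Of the 7 members, 6 stayed at or past 2-fold higher under each of the 12 alternatives run. There was 1 library per genotype, so no test was possible and the spread between mice was not measured.

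The second question was how the genes differed between *LApcL* and *LApc*. *Ly6a* was 3.19-fold higher in *LApcL* (3.13 to 3.25), a log2 ratio of 1.67. *Clu* was 2.30-fold higher (2.25 to 2.36), a log2 ratio of 1.20. *Il33* and *Ccn2* were slightly higher, at log2 ratios of 0.14 (0.07 to 0.22) and 0.28 (0.23 to 0.34). *Ccn1* was lower by a log2 ratio of -0.30 (-0.32 to -0.28). *Anxa1* differed by -0.06 (-0.08 to -0.04), and its sign turned under 3 of the 12 alternatives. The *Gja1* level in *LApcL* was 0.135 times that in *LApc* (0.0559 to 0.281), from 8 and 67 UMIs, which on the log2 scale of (CPM + 1) was -0.66. On that scale 2 of 7 members were at or past 2-fold higher and 0 lower, where 1.32% of all 16558 genes were at or past 2-fold higher and 3.92% lower. *Gja1* could not reach 2-fold on that scale, because its levels were under 1 CPM. The *Ly6a* log2 ratio ranged from 1.28 to 1.84 over the alternatives and that of *Clu* from 1.13 to 1.26.

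Against WT, *LApcL* gave log2 ratios of 8.00 for *Ly6a*, 6.15 for *Clu*, 5.68 for *Anxa1*, 4.91 for *Il33*, 3.78 for *Ccn2* and 2.14 for *Ccn1*. These 6 members, the ones with at least 10 UMIs in 1 of the 2 libraries, were all at or past 2-fold higher, as were 20.9% of all genes, with 9.26% lower. This comparison shares its libraries with the other 2 and is given only as values.

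Markers of other cell types differed between libraries in the deep barcodes. The 5 endothelial markers, none at 0, had a summed level of 1.23 CPM in WT and 1.43 in *LApcL* but 6.54 in *LApc*, and *Cdh5* alone gave 4.77 of the *LApc* sum. The 5 immune markers summed to 0.920, 11.2 and 13.2 CPM, with *Cd68* the highest of them in each library, while the pan-leukocyte gene *Ptprc* had 0, 2 and 2 UMIs. Lymphatic endothelial markers summed to 52.8 CPM in WT, of which *Lyve1* gave 52.3, and to 1.35 and 1.20 in *LApc* and *LApcL*. The WT level of *Lyve1* thus differed from the other libraries in the opposite direction to the members. Fibroblast markers were at or under 1.76 CPM in sum in each library, with *Dcn* at 0 in WT and *Lum* at 0 in *LApc* and *LApcL*. The part of these RNAs in the member levels was not tested.

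The share of cells holding a gene depends on depth, so each deep barcode was thinned to 10000 UMIs. *Ly6a* was then in 0.579% of WT barcodes, 25.5% of *LApc* and 64.1% of *LApcL* (unthinned 1.24%, 38.5% and 75.0%). *Clu* was in 0.993%, 37.1% and 70.3% (unthinned 4.97%, 61.5% and 87.8%). *Anxa1* was in 0.828%, 68.2% and 70.0% (unthinned 2.81%, 80.8% and 83.9%). *LApcL* was above *LApc* for *Ly6a* and *Clu*, as it was by level. For *Anxa1* the deleted genotypes were close, with *LApcL* slightly higher by share and slightly lower by level.

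For *Il33* the thinned shares were 0.331%, 19.8% and 23.9% (unthinned 0.579%, 40.0% and 49.6%). *Ccn1* was in 33.5%, 78.0% and 82.1% (unthinned 60.9%, 91.0% and 92.5%), and *Ccn2* in 2.65%, 18.6% and 25.8% (unthinned 6.87%, 34.0% and 45.2%). *Ccn1* was the member found in a sizable part of WT cells, and its share was higher in *LApcL* than in *LApc* although its level was lower. *Gja1* had a UMI in 0 of 1208 thinned WT barcodes, in 0.278% of *LApc* and in 0 of 1931 *LApcL* barcodes. The exact upper limits for barcodes with a UMI, which do not limit cells that express the gene, were 0.305% in WT and 0.191% in *LApcL*. As a background, the endothelial gene *Pecam1* was in 0.911%, 1.71% and 0.777% of the same thinned barcodes. The WT shares of *Ly6a*, *Anxa1* and *Il33* and the *LApc* share of *Gja1* were at or below it, and that of *Clu* in WT lay inside its 95% interval of 0.455% to 1.62%, so over the whole library these shares are not read as expression. The UMIs were not spread evenly, however. Much of WT *Anxa1* lay in 1 barcode, WT *Ly6a* differed between clusters as given below, and 64 of the 67 *LApc* *Gja1* UMIs lay in clusters 2 and 3, where *Pecam1* was at 1.17 and 0.558 CPM.

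**Figure D2:**
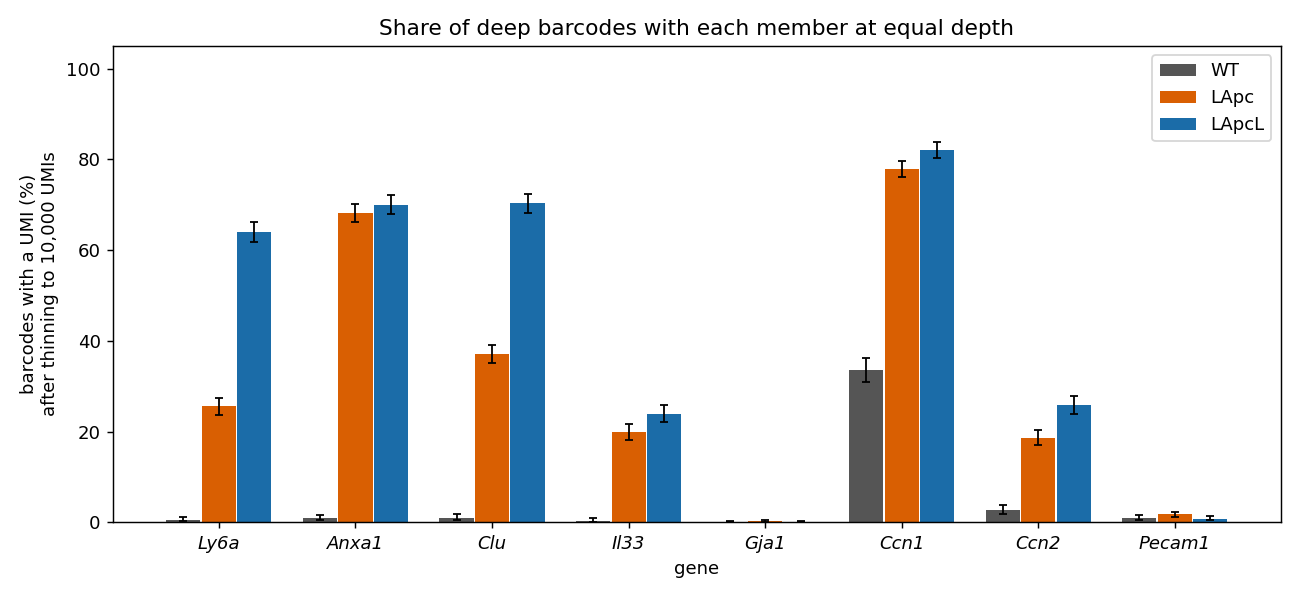
Share of deep barcodes with at least 1 UMI of each member, and of *Pecam1* as background, after thinning to 10,000 UMIs. Bars are 1208 WT, 2161 *LApc* and 1931 *LApcL* barcodes, and error bars are exact 95% Clopper-Pearson intervals (counting error only). *Ly6a* and *Clu* separate *LApcL* (64.1% and 70.3%) from *LApc* (25.5% and 37.1%), whereas *Anxa1* does not (70.0% and 68.2%).

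Cells of 1 genotype differed widely in these genes. Among thinned barcodes with a UMI of *Ly6a*, the mean was 4.61 UMIs in *LApc* and 6.38 in *LApcL*, so both the share and the amount per positive cell were higher in *LApcL*. Without thinning, the 217 *LApc* barcodes richest in *Ly6a* held 82.3% of its UMIs, against 54.2% in the 194 richest of *LApcL*, which is the same part of each library. The equally many barcodes richest in *Ccn2* held 73.8% and 66.9% of its UMIs, and those richest in *Ccn1* 36.6% and 33.3%. By these unthinned counts *Ly6a* and *Ccn2* were more concentrated in *LApc* than *Ccn1*. Barcodes differed in depth and the genes in level, and the part of both in this was not tested. Across cells the thinned *Ly6a* count also followed the log of total UMIs, with Pearson's r of 0.289 over 2161 *LApc* barcodes and 0.402 over 1931 *LApcL* barcodes.

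Detection of several members in 1 cell was common in the deleted genotypes and rare in WT. A thinned barcode held 0.389 of the 7 members on average in WT, 2.47 in *LApc* and 3.36 in *LApcL*. In WT, 63.9% of barcodes held no member and 2.81% held 2, the most seen. At least 4 members were detected in 21.9% of *LApc* and 49.1% of *LApcL* barcodes, 6 members in 18 and 71 barcodes, and 7 in none.

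Pairs were compared with the number of barcodes that the product of the 2 shares gives, for the pairs where that product was at least 10, which were 15 of 21 in *LApc* and in *LApcL*. This is a description of cells from 1 library, which share culture and depth. In *LApc* the ratio of observed to product had a median of 1.05 and ran from 0.713 to 2.01. The highest ratio was for *Ly6a* with *Ccn2*, found together in 206 barcodes where the product gave 102, and *Ly6a* with *Clu* followed at 1.55. *Anxa1* was in 90.0% of *Ly6a*-positive and 60.7% of *Ly6a*-negative *LApc* barcodes. *Il33* went the other way. It shared 78 barcodes with *Ly6a* where the product gave 109, a ratio of 0.713, and its ratio with *Ccn2* was 0.768.

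In *LApcL* the 15 ratios were closer to 1, from 0.993 to 1.21 with a median of 1.10. There *Ly6a* with *Ccn2* had a ratio of 1.11, *Ly6a* with *Clu* 1.09 and *Ly6a* with *Il33* 0.993. *Il33* with *Ccn2*, under 1 in *LApc*, had the highest *LApcL* ratio, 1.21, from 144 barcodes where the product gave 119. The *LApcL* ratio of *Il33* was 1.11 with *Clu* and 1.10 with *Anxa1*. *Anxa1* was in 81.8% of *Ly6a*-positive and 49.0% of *Ly6a*-negative *LApcL* barcodes. A ratio is bounded above by the inverse of the larger share, which leaves less room where shares are high. In WT 1 pair reached the minimum, *Ccn1* with *Ccn2*, in 16 barcodes where the product gave 10.7.

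**Figure D3:**
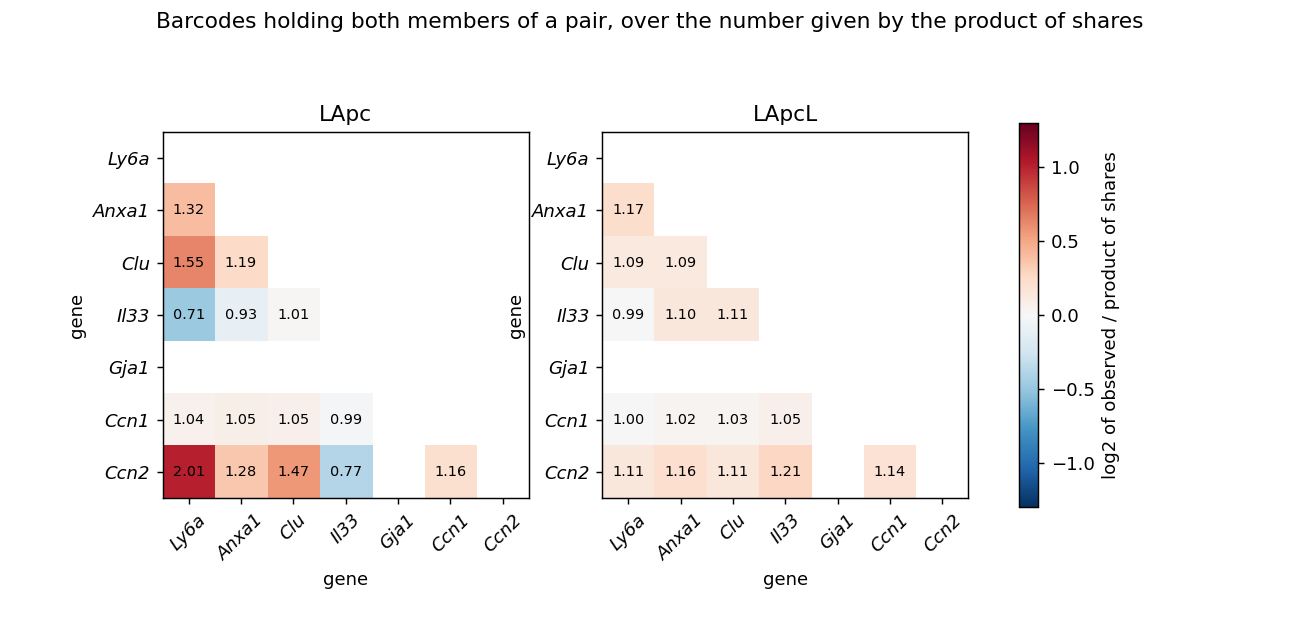
Barcodes holding both members of a pair after thinning, divided by the number that the product of the 2 shares gives, in *LApc* (left) and *LApcL* (right). Printed numbers are the ratios, colors their log2, and blank cells are pairs whose product was under 10 (each pair with *Gja1*). *Il33* with *Ly6a* and with *Ccn2* lies under 1 in *LApc*, and the *LApcL* ratios lie between 0.993 and 1.21.

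Within each library, barcodes were clustered without using the members, the listed genes or mitochondrial genes, and the levels in the clusters are a description. In *LApc*, *Ly6a* was at 345 CPM in cluster 3 (418 barcodes, led by *Ms4a10*, *Serpinb6b* and *Serpinb1a*) and 266 in the proliferating/TA-like cluster 2 (434 barcodes, led by mitotic genes). It was at 76.3 CPM in cluster 1, 13.6 in cluster 4, which is led by *Tpsb2* and includes *Npy* among its leading genes, and 3.20 in cluster 5, led by *Cd177*, *Sct* and *Prss56*. *Ccn2* was likewise highest in cluster 3, at 102 CPM, and lowest in cluster 5, at 3.75, but reached 71.1 in the Paneth-like cluster 7, where *Ly6a* was at 27.1. *Il33* was highest where *Ly6a* was lowest, with 60.0 CPM in cluster 5 and 50.2 in cluster 4 but 15.9 in cluster 3. *Anxa1* was at 510 CPM in cluster 3 and 92.7 in cluster 5, and *Clu* at 209 and 13.5. In the 2 *LApc* clusters richest in *Ly6a*, 48.4% and 53.3% of thinned barcodes held it.

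In *LApcL*, *Ly6a* was at 830 CPM in cluster 2, led by *Basp1*, *Wfdc18* and *Ly6c1*, 647 in the proliferating/TA-like cluster 6, 520 in cluster 1 and 468 in cluster 3. In the other 3 clusters it was below its level over the whole *LApc* library, at 126 CPM in cluster 4, 108 in cluster 5 and 77.5 in the Paneth-like cluster 7. *Anxa1* was at 578 CPM and *Clu* at 369 in cluster 2, the highest of the 7 clusters for both. *Il33* was at 57.4 CPM in cluster 4, led by *Cplx2*, *Ptprt* and *Rgcc*, and 4.93 in the Paneth-like cluster. *Ccn1* ran from 164 CPM in the Paneth-like cluster to 427 in cluster 4, a narrower range than that of *Ly6a*.

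In WT, 16 of the 54 *Ly6a* UMIs fell in the enteroendocrine-like cluster of 37 barcodes (17.0 CPM, 9.71 to 27.6), where 10.8% of thinned barcodes held it, against 1 UMI in the stem-like cluster of 216 barcodes. *Pecam1* was also highest in that enteroendocrine-like cluster among WT clusters, at 5.31 CPM from 5 UMIs and in 8.11% of thinned barcodes, and its part in the *Ly6a* value was not tested. Cluster 5 held 25 *Ly6a* UMIs, all in the single barcode named above. The WT proliferating/TA-like cluster had *Ly6a* at 0.767 CPM, *Anxa1* at 1.31 and *Ccn1* at 45.2. *Ccn1* reached 101 CPM in WT cluster 1, led by *Eno3*, *Cltrn* and *H1fx*, and 27.2 in cluster 5, led by *Cyp2c29*, *Tmigd1* and *Ggt1*. Of the 8 WT *Il33* UMIs, 6 were in cluster 5. The highest WT cluster level of *Clu* was 4.78 CPM (cluster 1, which holds the single barcode named above) and that of *Il33* 0.786 CPM.

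**Figure D4:**
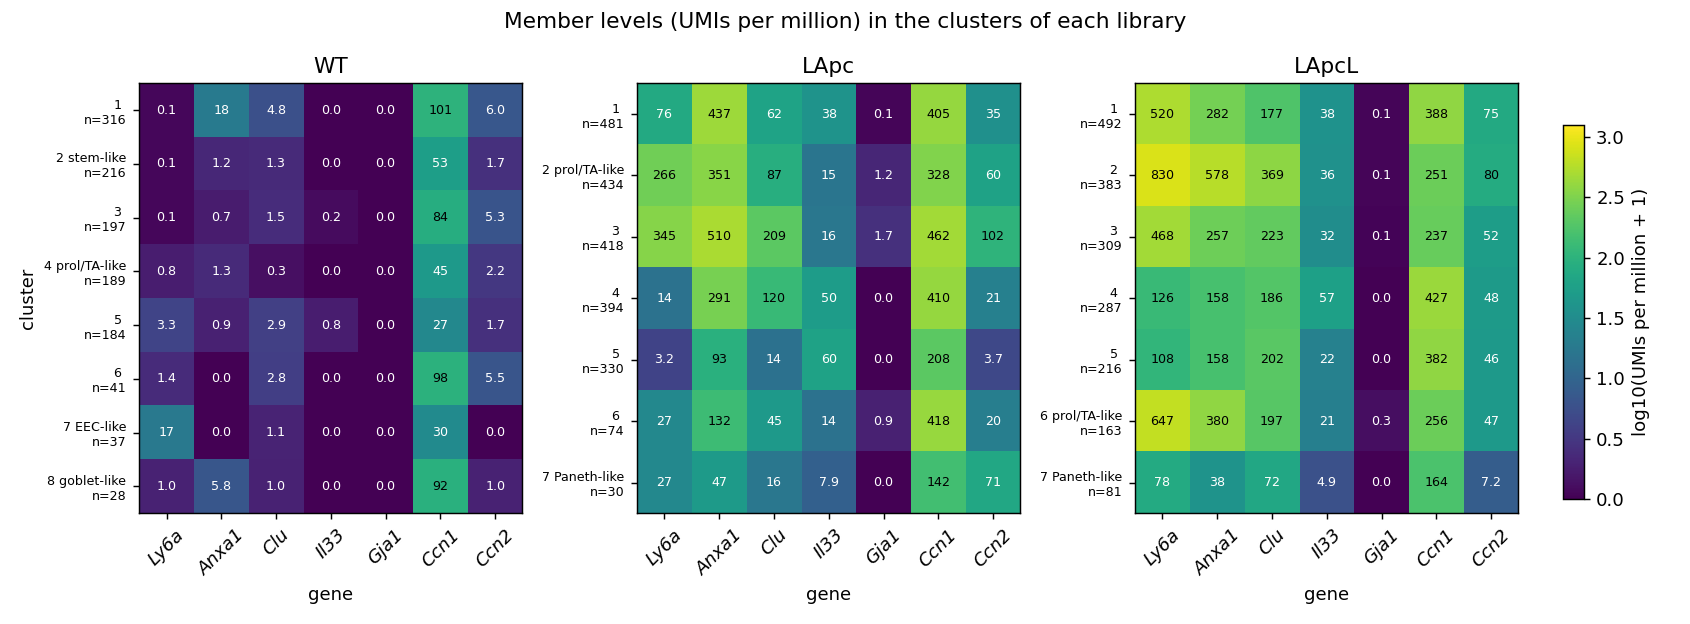
Member levels in UMIs per 1000000 (printed, colored on a log10 scale of the level + 1) for each cluster of the 3 libraries, with the number of barcodes. Names are given where marker genes allowed one (prol/TA-like, proliferating or transit-amplifying; EEC-like, enteroendocrine), and clusters of different libraries are numbered separately. *Ly6a* runs from 3.20 to 345 across *LApc* clusters and from 77.5 to 830 across *LApcL* clusters, and *Il33* is highest in *LApc* where *Ly6a* is lowest.

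The spread of the members across cells also differed with markers of cell state, again as a description. In *LApc*, *Ly6a* was in 15.2% of the 1000 thinned barcodes with a UMI of *Lef1* and in 34.5% of the 1161 without. *Ccn2* was in 11.7% and 24.5% of them, and *Il33* in 23.8% and 16.4%. Barcodes with a UMI of *Npy*, which encodes neuropeptide Y, held *Ly6a* in 10.7% and *Il33* in 31.9%, against 27.9% and 17.9% without it. In *LApcL* the *Lef1* split was smaller for *Ly6a*, at 59.2% and 66.8%. *Ly6a* was in 39.8% of *LApc* barcodes with a UMI of *Mki67* (Ki-67, a marker of cycling cells) and 20.6% without, and in 71.8% and 58.0% in *LApcL*. *Il33* differed in the other direction, at 14.2% with *Mki67* and 21.7% without in *LApc* and 19.9% and 27.1% in *LApcL*. *Ccn1* (81.3% and 76.8%) and *Ccn2* (24.9% and 16.4%) were more frequent with *Mki67* in *LApc* but less frequent in *LApcL*, at 79.3% and 84.4% for *Ccn1* and 24.2% and 27.0% for *Ccn2*. The cluster with the highest *Ly6a* level was not the proliferating/TA-like one in either genotype. In the *Lef1* and *Mki67* splits the *Ly6a* share was higher in *LApcL* than in *LApc* on each side. With *LApc* barcodes that held *Npy* left out, the *Ly6a* log2 ratio of *LApcL* against *LApc* was 1.63.

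The genes most like each member across cells of a library were ranked by Pearson's r of thinned counts on a log scale. In *LApc*, *Ly6a* was most like *Anxa3* (r = 0.576), *Wfdc2* (0.518) and *Gpx2* (0.511) over 2161 barcodes. In *LApcL* it was most like *Ly6c1* (0.566), *Anxa1* (0.528) and *Anxa2* (0.527) over 1931 barcodes. *Ly6c1* belongs to the gene family of *Ly6a*, whose members are alike in sequence, and how reads that match several family members were assigned is not given in the sources used here. *Anxa1* was most like *Krt19* (0.563) in *LApc* and *S100a6* (0.581) in *LApcL*. *Clu* was most like *Msln* (0.353) in *LApc* and *S100a6* (0.434) in *LApcL*.

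*Ccn1* had a different circle of genes. It was most like *Jund* (0.305) and *Klf6* (0.305) in WT, *Edn1* (0.334), *Klf6* (0.323) and *Hbegf* (0.312) in *LApc*, and *Atf3* (0.334), *Edn1* (0.299) and *Hbegf* (0.297) in *LApcL*. Its r with the sum of the 16 genes of an immediate early list was 0.351 in WT, 0.347 in *LApc* and 0.346 in *LApcL*. Immediate early genes switch on within minutes of a stimulus such as cell dissociation, and the list also holds the heat shock genes *Hspa1a* and *Hspa1b*. *Ly6a* had an r of -0.0142 and 0.0502 with the same sum in *LApc* and *LApcL*. *Ccn2* was most like *Edn1* in both deleted genotypes (0.313 and 0.242). *Il33* had no r above 0.246 with any gene, with *Fth1* leading in *LApc* (0.221) and *Sbspon* in *LApcL* (0.246).

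Other genes of the same programs were taken from 6 lists. The share of all genes called in the same direction is given beside the counts. Of 15 other fetal-like genes, 9 were at or past 2-fold higher in *LApc* than in WT (all genes 19.6%) and 2 lower (8.13%), with a median log2 ratio of 1.99. *S100a6*, which encodes a calcium-binding protein, was at 6602 CPM against 84.9 (log2 ratio 6.26). The 2 lower genes were the growth factors *Areg*, at 114 against 1549 CPM (-3.76), and *Ereg*, at 6.67 against 44.4 CPM (-2.57). Between *LApcL* and *LApc*, 1 of the 14 with enough UMIs was at or past 2-fold higher (all genes 1.32%) and 0 lower (3.92%), the secreted phosphoprotein gene *Spp1* (13.9 against 4.55 CPM), and *Anxa3* had a log2 ratio of 0.71. *Cd55* and *S100a6* had the lowest, at -0.79 and -0.88. With a pseudocount of 10 CPM *Spp1* did not reach 2-fold.

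Of 18 measured other Yap targets, 10 were at or past 2-fold higher in *LApc* than in WT (all genes 19.6%) and 1 lower (8.13%), with a median log2 ratio of 1.62. With median-of-ratios scaling 9 were higher and 3 lower, beside 12.8% and 12.0% of all genes. *Rbms3* was at 151 CPM against 0.0818 (7.13) and *Tgfb2* at 50.5 against 0.266 (5.35), while the stress gene *Gadd45a* was at 38.2 against 186 (-2.26) and *Nuak2* at 6.11 against 12.8 (-0.96). In *LApcL* against *LApc*, *Ccdc80* was higher (34.3 CPM in *LApcL*, log2 ratio 1.14) and *Ankrd1* had a log2 ratio of 0.83. *Tgfb2* (3.63 against 50.5 CPM, -3.48) and *Igfbp3* (0.981 against 3.62 CPM, -1.22) were the 2 at or past 2-fold lower. In this comparison 1 of 18 was higher and 2 lower, beside 1.32% and 3.92% of all genes. With a pseudocount of 10 CPM only *Tgfb2* among them stayed past 2-fold.

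Of 17 parts of the Hippo pathway, 10 were at or past 2-fold higher in *LApc* than in WT and 0 lower, beside 19.6% and 8.13% of all genes, and 7 were within 2-fold. Their median log2 ratio was 1.31, and 0.97 with median-of-ratios scaling, where 8 were higher beside 12.8% of all genes. The coactivator genes *Yap1* and *Wwtr1* (Taz) were at 48.9 against 20.9 CPM (1.19) and 37.0 against 3.25 CPM (3.16). Of the Tead factors, *Tead2* was at 51.7 against 0.736 CPM (4.92), *Tead4* at 4.81 against 0.0818 (2.42), *Tead1* at 64.3 against 22.3 (1.49) and *Tead3* at 11.8 against 6.99 (0.68). The scaffold gene *Amotl1* had a log2 ratio of 4.50, and the kinase gene *Lats1* and *Nf2* had the lowest, at 0.39 and 0.55. No Hippo gene of the 17 reached 2-fold in *LApcL* against *LApc*, where 1.32% of all genes were higher and 3.92% lower. *Tead2* and *Stk3* had the highest log2 ratios, at 0.59 and 0.41, *Wwtr1*, *Tead4*, *Tead3* and *Tead1* lay at 0.38, 0.40, 0.08 and -0.06, and *Yap1* and *Amotl1* were the lowest, at -0.19 and -0.36.

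Relatives of the members in the Ly6, annexin, connexin and CCN families were at or past 2-fold higher in *LApc* in 9 of 16 measured genes (all genes 19.6%), with 0 lower (8.13%) and a median log2 ratio of 1.77. With a pseudocount of 10 CPM 5 were higher, beside 7.09% of all genes. *Ly6g* was at 13.1 CPM against 0 UMIs in WT and *Ly6d* at 54.2 against 3.37 CPM (3.66), while *Anxa11* (-0.44) and *Gjb2* (-0.57) were the lowest. With *LApcL* set against *LApc*, 2 of 17 measured relatives were at or past 2-fold higher (all genes 1.32%) and 3 lower (3.92%). The 2 higher ones were among the 4 measured Ly6 relatives, *Ly6c1* at 85.3 against 10.7 CPM (2.88) and *Ly6g* at 64.3 against 13.1 (2.21). *Ly6e* had a log2 ratio of 0.05, and *Ly6d* was at or past 2-fold lower (-1.31). The gap junction gene *Gjb5* (1 UMI in *LApcL*, 2.95 CPM in *LApc*) and *Ccn5* (2 UMIs, 2.00 CPM) had the lowest log2 ratios, -1.96 and -1.55. Neither reached 2-fold with a pseudocount of 10 CPM.

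Genes for receptors and partners were nearer to the median of all genes. In *LApc* against WT, 3 of 9 were at or past 2-fold higher (all genes 19.6%) and 0 lower (8.13%), with a median log2 ratio of 0.65. With median-of-ratios scaling 1 of 9 was higher, close to the 12.8% of all genes. The *Il33* co-receptor gene *Il1rap* was at 8.65 against 2.39 CPM (1.51) and the integrin gene *Itgb1* at 206 against 91.8 (1.16). *Itgb5* had a log2 ratio of 0.04 and *Il1rl1*, the *Il33* receptor, -0.45 at 0.0330 against 0.409 CPM. In *LApcL* against *LApc*, *Vldlr* (14.8 against 36.1 CPM, -1.23) and *Itgb5* (1.18 against 4.52 CPM, -1.34) were the 2 of 8 at or past 2-fold lower (all genes 3.92%). With a pseudocount of 10 CPM neither of them was. There were 0 higher (all genes 1.32%), and *Itga6* (0.58) and *Itgb1* (0.30) were the highest.

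Genes of the immediate early list were at or past 2-fold higher in 4 of 16 cases in *LApc* against WT and lower in 0 (all genes 8.13%), with a median log2 ratio of 0.56. The 4 higher genes were *Ier3*, *Klf2* and the heat shock genes *Hspa1a* and *Hspa1b*. The share of the list at or past 2-fold higher was close to the 19.6% of all genes. *Ier3* was at 297 against 20.0 CPM (3.82) and *Hspa1b* at 43.3 against 7.71 (2.35), and *Jun* (-0.16) and *Klf6* (-0.49) were the lowest. *Ccn1*, which followed these genes across cells, had a log2 ratio of 2.44 in that comparison, and their part in its level was not tested. In *LApcL* against *LApc* 1 of 16 was at or past 2-fold lower (all genes 3.92%) and 0 higher (1.32%), with a median of -0.26. *Klf2* (11.4 against 54.6 CPM, -2.17) and *Atf3* (-0.75) were the lowest, and *Hspa1a* (0.60) and *Klf4* (0.52) the highest.

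**Figure D5:**
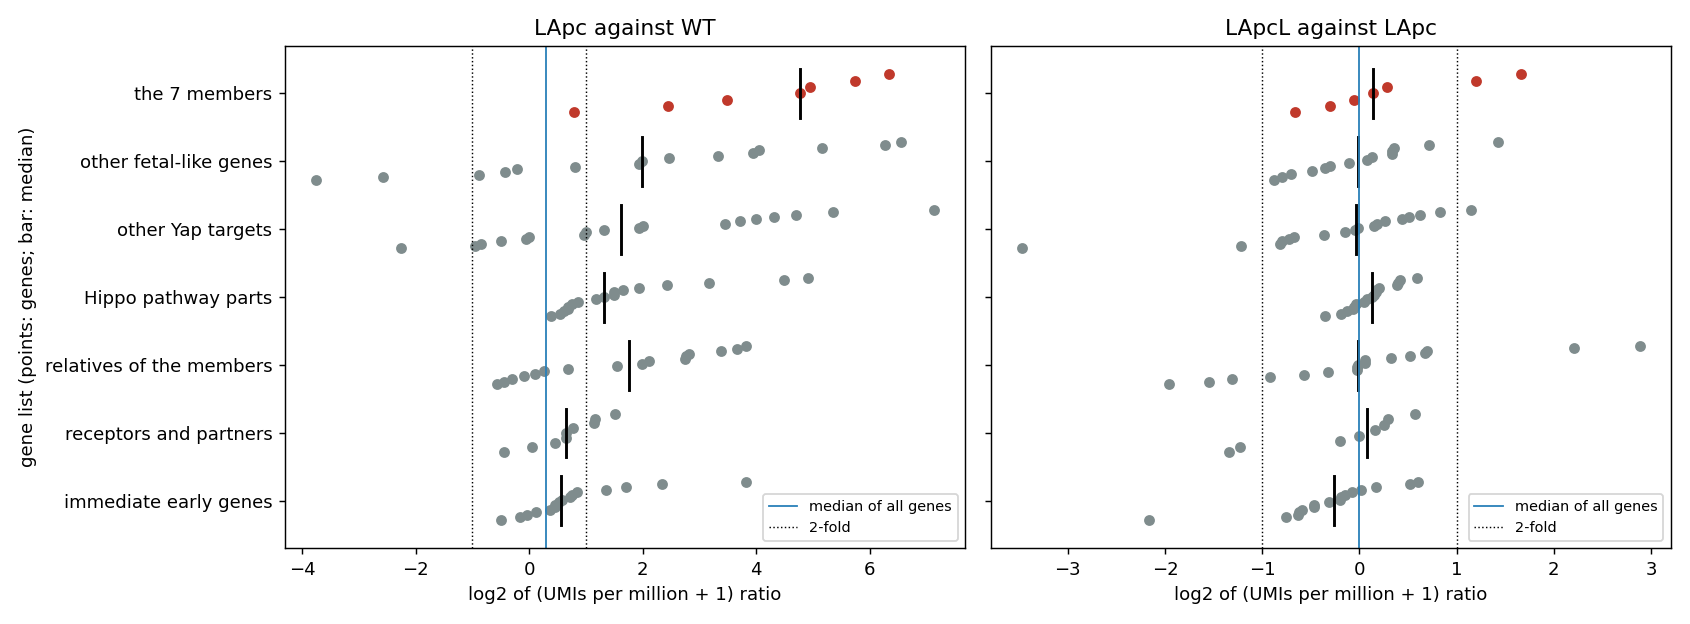
Log2 ratios of the 7 members and of the genes of 6 related lists, in *LApc* against WT (left) and *LApcL* against *LApc* (right). Points are genes with at least 10 UMIs in 1 of the 2 libraries, black bars list medians, the blue line the median of all genes and dotted lines 2-fold. The member median lies at 4.77 on the left and 0.14 on the right, where the medians of all genes are 0.31 and 0.00.

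The barcodes shared by all 3 libraries held the same genes in another setting. Of them, 3145 in WT, 3151 in *LApc* and 3149 in *LApcL* passed the mitochondrial limit, with medians of 2200, 1498 and 1622 UMIs, and they held 1052 to 1078 CPM of *Pecam1* and 2.22 to 12.4 CPM of *Epcam*. *Ly6a* was at 752 to 763 CPM over the 3 libraries, *Clu* at 1861 to 1934, *Gja1* at 235 to 242 and *Il33* at 54.1 to 62.3. *Anxa1* was at 162 CPM in each, *Ccn1* at 635 to 667 and *Ccn2* at 20.8 to 21.9. No genotype stood out in these barcodes, and the 3 libraries are not independent there. *Gja1*, nearly missing from the deep barcodes, was present here.

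Per UMI of *Pecam1*, the shared WT barcodes held 0.697 UMIs of *Ly6a*, 0.150 of *Anxa1*, 1.73 of *Clu* and 0.613 of *Ccn1*. In the deep WT barcodes the values were 1.10, 5.69, 2.37 and 67.1, from 49 *Pecam1* UMIs and with 25 of the 54 *Ly6a*, 231 of the 279 *Anxa1* and 51 of the 116 *Clu* UMIs in single barcodes. In deep *LApc* barcodes they were 106, 223, 64.9 and 232, and in deep *LApcL* barcodes 509, 324, 226 and 284. The part of RNA from the shared barcodes in the deep WT levels was not tested.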

How the data were processed

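The authors made droplet 3′ libraries (10x Genomics) and deposited, per library, whole-number UMI counts per gene and barcode without normalization, on mm10. The processing notes name Cell Ranger 2.1.1 and the file headers 6.0.1. The members and lists were chosen with earlier results of these data known. The counts of deep barcodes were summed and scaled to 1000000 per library (CPM). Levels have exact Poisson intervals (95%), ratios conditional binomial ones and shares those of Clopper-Pearson. PCR and droplet effects add error that they do not cover. A gene with 0 UMIs was set at 3 counts. Barcodes were thinned without replacement to 10000 UMIs. Clusters used scanpy 1.11.5 (log-normalization to 10000, 2000 variable genes, 20 principal components, 20 neighbors, Leiden resolution 0.5). A cluster was named from at least 3 listed markers among its 50 leading genes by fold, with 1 or more in the top 10. Doublets were not removed from the main values. Scrublet's own threshold marked 1, 2 and 1 barcodes in WT, *LApc* and *LApcL* and so had not worked, and an alternative removed the highest scores at 0.8% per 1000 barcodes. Named beside the members were *Epcam* and *Pecam1*, the 2 highest and 2 lowest log2 ratios of each list in each comparison (at least 10 UMIs in 1 of the 2 libraries), *Yap1*, *Wwtr1* and *Tead1* to *Tead4*, and the up to 3 genes most like each member with r of at least 0.2. A gene that this rule would name is not reported here. Gene positions came from the Gencode annotation of GRCm38. The ratio, thinning and co-detection steps were tested on simulated data.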

Additional observations from a re-analysis of the deposited data

Results flagged for a closer look

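The members were found in barcodes outside the comparisons, those shared by all 3 libraries, above the level that a count of 0 allows. In the WT library, unthinned, *Ly6a* was in 52.7% of the 3145 shared barcodes, *Clu* in 58.4%, *Ccn1* in 46.7% and *Gja1* in 34.7%. *Anxa1* was in 23.8% of them, *Il33* in 8.39% and *Ccn2* in 3.91%. These barcodes were shallow, with a median of 2200 UMIs, and 81.8% of them held *Pecam1*.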

How the results depend on the processing

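No paired analysis was possible because each genotype had 1 library. For the same reason no replicate could be left out, and no value has an error between mice. In *LApc* against WT each of the 7 members kept its sign and its side of 2-fold under all 12 alternatives. For *Gja1* the log2 ratio ran from 0.037 with barcodes of any depth to 0.82. Its main levels were under 1 CPM, where a ratio of (CPM + 1) cannot reach 2-fold. Its side of 2-fold was thus set by the scale in both comparisons and does not show a stable result. In *LApcL* against *LApc* each kept its side of 2-fold under 12 alternatives, but the sign turned for *Anxa1* with a mitochondrial limit of 10% (0.013), without high doublet scores (0.00049) and in proliferating/TA-like clusters only (0.11), and for *Ccn2* in those clusters (-0.33). The clusters of that name are not the same part of each library, at 434 *LApc* and 163 *LApcL* barcodes. The unnamed *LApcL* cluster 3, with *Mki67* at 308 CPM, was left out. The cause of the turned signs was not tested. The median log2 ratio of the 7 members in *LApc* against WT was 4.19 with barcodes of any depth, 4.13 with the deep barcodes of 2 or 3 libraries kept, 4.98 against WT stem-like and proliferating/TA-like clusters only, 4.92 with equal weight per barcode and 2.30 with a pseudocount of 10 CPM. A pseudocount of 10 shrinks low genes by construction. It gave list medians of 0.79 for fetal-like genes, 0.51 for Yap targets, 0.76 for Hippo parts, 0.49 for relatives and 0.58 for receptors, with 5 of 16 relatives and 1 of 9 receptors at or past 2-fold higher, beside 7.09% of all genes. With median-of-ratios scaling the medians were 1.25 for Yap targets, 0.97 for Hippo parts, 1.63 for relatives, 0.28 for receptors and 0.14 for immediate early genes, with 3 Yap targets at or past 2-fold lower and 1 receptor higher. Without a minimum of UMIs the medians were 1.16 for Yap targets, 0.18 for relatives and 0.27 for receptors. In *LApcL* against *LApc*, median-of-ratios scaling gave 0.022 for fetal-like and -0.23 for immediate early genes. There a pseudocount of 10 left 0 fetal-like genes and 0 Yap targets at or past 2-fold higher, and 1 Yap target, 1 relative and 0 receptors lower, beside 0.290% of all genes higher and 0.978% lower. Without thinning WT barcodes held 0.774 members on average. The WT stem-like and proliferating/TA-like comparison, the proliferating/TA-like comparison and the leaving out of single WT barcodes were chosen after seeing the data. WT without enterocyte-like clusters was not run, since no WT cluster met that name. WT levels of *Il33* (8 UMIs) and *Gja1* (0 UMIs) are limited by depth.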
